A study of Rattus norvegicus with 9 samples.

Results

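In rat pulmonary arterial smooth muscle cells, 160 genes had at least a 4-fold lower array value in hypoxia than in normoxia, and at least a 4-fold higher value with quercetin in hypoxia than in hypoxia alone, in the deposited data. They were chosen from the log2 value table as genes whose mean over the hypoxia arrays was at least 2 log2 units below the normoxia mean, and whose mean with quercetin was at least 2 log2 units above the hypoxia mean. A gene also needed a symbol and a probe marked well above background on all 3 normoxia arrays, and the brightest qualifying probe stood for the gene. Of 15803 genes with a symbol on the array, 11312 met the demand on normoxia signal and 160 met the whole rule. Because both differences chose the genes, they are described below without a test.

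The arrays held RNA from pulmonary arterial smooth muscle cells of male Sprague Dawley rats at culture generation 4, with 3 arrays for each of 3 groups. Before treatment all cells were kept without serum for 24 h. The normoxia group and the hypoxia group then received 0.1% DMSO for 24 h in DMEM-F12 with 10% fetal bovine serum, and the third group received quercetin in hypoxia for the same time. Hypoxia was 1% O2 with 5% CO2 in an airtight chamber at 37 °C. No source used here gives the dose of quercetin. Nor do the labels say whether the 3 samples of a group came from separate cultures, so p-values cover the spread among these 9 samples alone, part of which may be technical.

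Pulmonary arterial smooth muscle cells build the contractile wall of the lung arteries, and in chronic hypoxia they multiply and thicken that wall. Low oxygen stabilises hypoxia-inducible factors, which raise genes for glycolysis and angiogenesis, while many other transcripts decline. Quercetin is a plant flavonol that interferes with many protein kinases and acts on redox balance. A gene that is low in hypoxia and close to its normoxia level with quercetin can belong to any of many pathways, and the genes described here fall into several.

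Signals are given as linear, arbitrary intensity units after each array was scaled to the same 75th percentile, and differences as log2. On the scaled arrays the median gene stayed near 0 in every array, between -0.02 and 0.14 log2 from its normoxia mean. The median of the 160 genes was 0.01, 0.16 and -0.16 on the normoxia arrays, -2.58, -2.58 and -2.50 on the hypoxia arrays, and -0.16, -0.23 and -0.21 on the quercetin arrays. All 160 genes had hypoxia arrays that lay wholly apart from the arrays of both other groups, which the rule nearly sets and which held for 56.1% of all genes tested, in either direction. Normoxia replicates 1 and 2 were on slide 1, normoxia replicate 3 shared slide 2 with the hypoxia arrays, and the quercetin arrays were on slide 3. Against normoxia replicate 3 alone, on the same slide, the hypoxia mean was lower for all 160 genes, with a median difference of -2.38, and was at least 2 log2 units lower for 123. Normoxia replicate 3 and the hypoxia arrays also entered the rule, so these values are largely set by the choice of genes. The part of slide in the first step was not tested by them. Quercetin and slide 3 cannot be told apart in the second step.

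**Figure D1:**
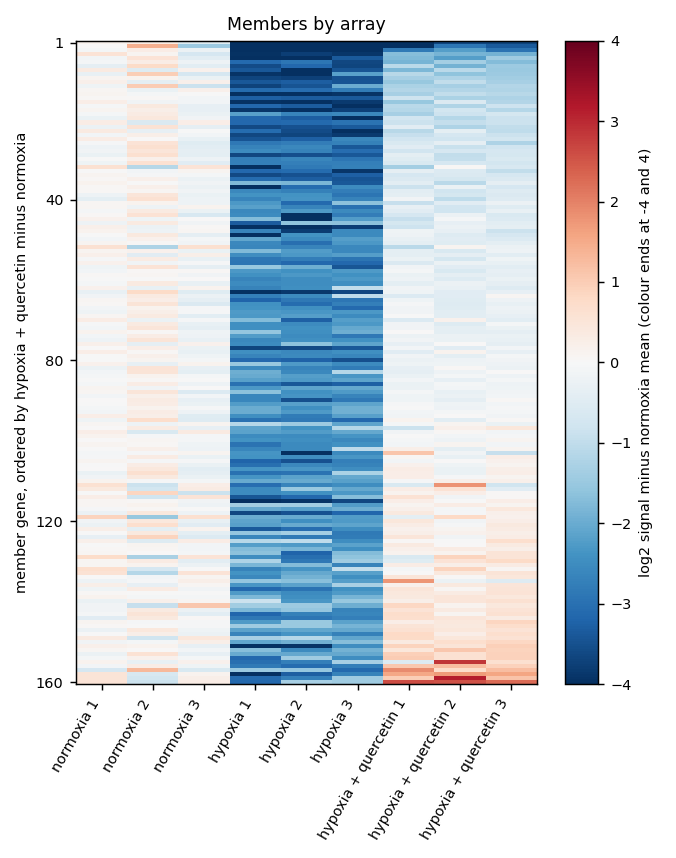
Log2 signal of the 160 genes on the 9 arrays, each row a gene, as the difference from that gene's normoxia mean (blue lower, red higher; colours end at -4 and 4). The 3 hypoxia columns are blue in nearly all rows, with medians of -2.58, -2.58 and -2.50, and the quercetin columns are near white except at the top, where genes stayed low, and at the bottom, where they ended above normoxia.

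On the scanner signals the hypoxia minus normoxia difference of these genes ranged from -6.04 to -1.52 with a median of -2.49, and the quercetin minus hypoxia difference from 1.49 to 5.02 with a median of 2.31. Measured as the share of the log2 loss regained, the median was 91.8%, with quartiles of 80.7% and 109%. Among the 56 genes well above background on all hypoxia arrays the share ran from 43.2% for Dclk1 to 126% for Ccne1, with a median of 90.4%, and 16 of them regained more than they had lost. For genes not above background in hypoxia the share depends on signals at the detection floor. These shares rest on the differences that chose the genes and are descriptive. The genes were not bright ones: their median place in the order of normoxia signals was the 40.3rd percentile, and 100 of 160 lay in the lower part, below the median of the tested genes.

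Low signals limit the size of the loss that could be measured. In hypoxia, 56 genes were well above background on all 3 arrays, 37 on 2, 13 on 1 and 54 on none. Hypoxia replicate 3 and quercetin replicate 1 had a higher background than the other arrays of their groups, the lowest signal counted as above background being 36.9 and 33.6 there against 8.58 to 13.5 on the other arrays of these groups. Of the 160 genes, 104 were not well above background on hypoxia replicate 3, against 55 and 66 on replicates 1 and 2. All 34 genes that missed background on a quercetin array did so on quercetin replicate 1. For these last 54, called dim in hypoxia below, only a lower bound of the fold can be given, taken against the lowest signal well above background on each array; its median was 2.51-fold for normoxia over hypoxia and 1.97-fold for quercetin over hypoxia. For 4 of the 54 in the first comparison and 6 in the second no bound above 1 could be set. The 56 genes measured on every array had folds of normoxia over hypoxia from 4.12 to 25.7, with a median of 5.72, and of quercetin over hypoxia from 3.46 to 16.5, with a median of 4.59.

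**Figure D2:**
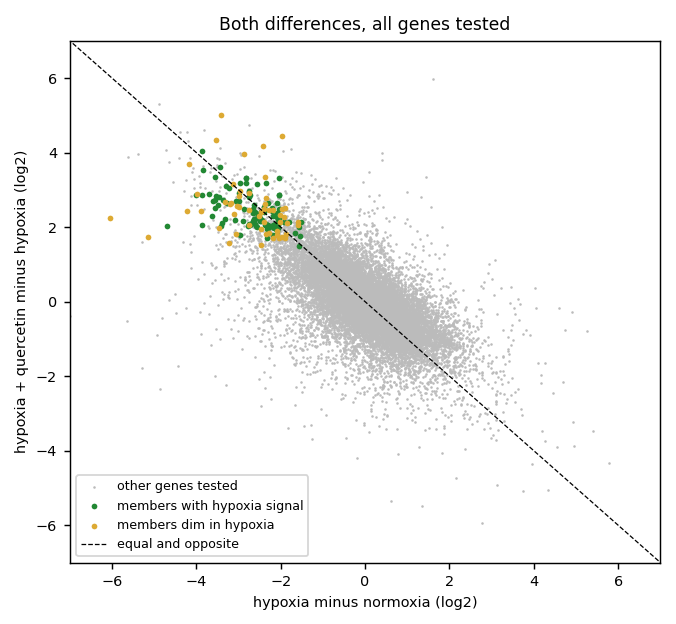
Hypoxia minus normoxia (horizontal, log2) against hypoxia with quercetin minus hypoxia (vertical, log2) for all 22107 genes tested; green points are the chosen genes with hypoxia signal on at least 1 array, yellow points those dim on all 3, and the dashed line marks an equal and opposite change. The chosen genes fill the upper left corner, and both axes contain the same hypoxia arrays, so a downward slope of the cloud is built in.

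Of the 160 genes, 121 were sorted by hand into 11 groups of known role after their values had been seen, and the groups are used below only to order the description.

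Among 17 genes of the cell cycle and DNA, Orc1, the largest subunit of the complex that marks replication origins, gave signals of 253, 332 and 233 in normoxia, 33.8, 25.6 and 28.1 in hypoxia and 223, 258 and 237 with quercetin. The quercetin arrays overlapped with normoxia and lay far above hypoxia, where 2 of 3 arrays were well above background. Ccne1 encodes a cyclin E that activates its kinase at the entry into S phase. It read 1953, 3102 and 2051 in normoxia, 526, 543 and 556 in hypoxia and 3567, 3190 and 3412 with quercetin, a 4.28-fold lower signal in hypoxia and one above every normoxia array with quercetin. Ns5atp9, now named Pclaf and known as a partner of the replication clamp PCNA, read 5080, 9466 and 4676, then 483, 528 and 574, then 4657, 3104 and 3698. Normoxia replicate 2 stood well above the other normoxia arrays for this gene. E2f8, an atypical E2F that represses E2F target genes, read 277, 441 and 301 in normoxia, 38.0, 33.8 and 15.8 in hypoxia and 194, 152 and 183 with quercetin.

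The same group held further genes of the replication fork and its repair. Wdhd1, which links helicase and polymerase at the fork, read 109, 187 and 99.98 in normoxia, 30.8 to 31.0 on the hypoxia arrays and 244, 192 and 240 with quercetin, above all normoxia arrays. Mms22l, needed to restart stalled forks, read 417, 682 and 393, then 80.3, 87.5 and 90.5, then 437, 401 and 395. Rad54b, a motor protein of homologous recombination, had mean signals near the detection limit in hypoxia, with 15.02, 18.1 and 8.13 against 76.0, 66.8 and 75.9 with quercetin. Gen1, a nuclease that cuts recombination intermediates, read 53.8, 63.4 and 53.8 in normoxia and 114, 87.2 and 106.8 with quercetin. The difference between these groups did not pass (limma adjusted p = 0.0987). In hypoxia Gen1 read 6.42, 21.3 and 10.06, well above background on 1 array. Not all members of the group drive the cycle. Cdkn2b, an inhibitor of the cyclin D kinases, read 80.9, 141 and 77.2 in normoxia, 16.4, 15.2 and 13.9 in hypoxia and 75.6, 98.4 and 81.5 with quercetin and so shared the profile. The remaining members were Lrr1, Spdya, Cenpi, Dclre1b, Eepd1, Ccnc, Lmnb2 and H2afx.

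**Figure D3:**
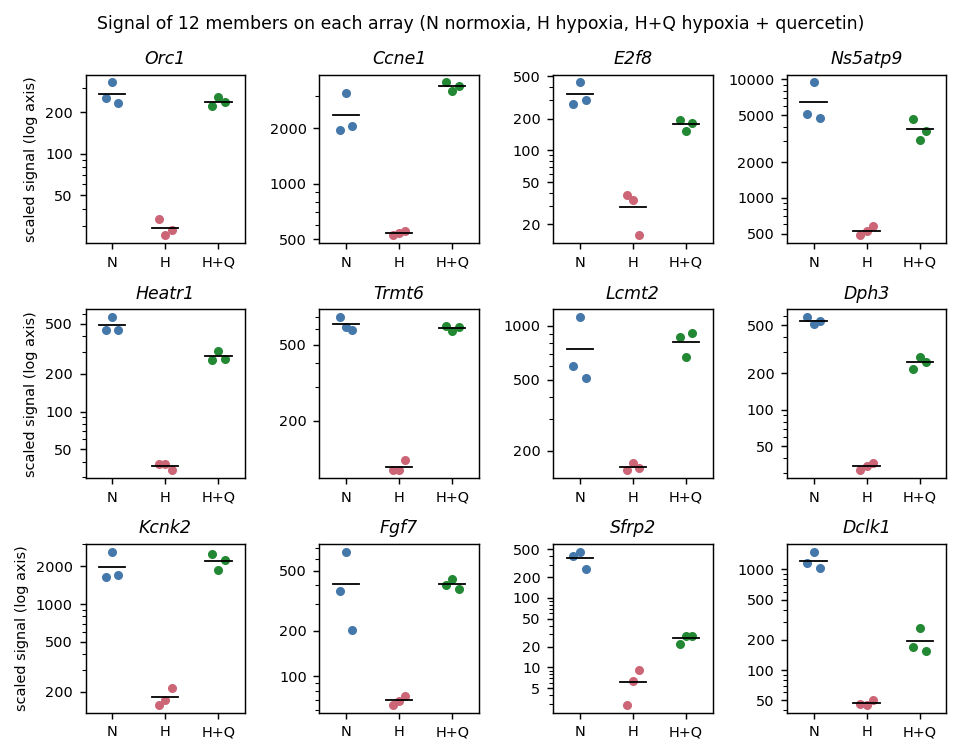
Scaled signal (log axis) of 12 genes on each array; points are arrays and bars are group means. The 3 hypoxia arrays lie below both other groups in every panel; Orc1, Trmt6, Kcnk2 and Fgf7 overlap with normoxia after quercetin, Ccne1 ends above it, and Sfrp2 and Dclk1 stay far below it.

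A list of 45 genes of DNA replication and the G1/S step, of which 43 were tested, shows what the rest of the pathway did. It contains 2 of the 160 genes, Orc1 and Ccne1. Of the other 41, 24 fell and 4 rose in hypoxia against normoxia by limma with an adjusted p under 0.05, where 28.9% of all tested genes fell and 35.3% rose. With quercetin against hypoxia 28 of the 41 rose and 2 fell, where 26.9% of all genes rose and 31.5% fell. Over all 43 the median difference was -0.57 in hypoxia and 0.87 with quercetin, against 0.10 and -0.07 for all genes. Both contrasts contain the hypoxia arrays.

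The 4 with the smallest adjusted p in the second step were Chaf1b, Chaf1a, E2f1 and Gins3. Chaf1b, a subunit of the chromatin assembly factor that follows the fork, read 2224, 3135 and 2093 in normoxia, 770, 775 and 779 in hypoxia and 3258, 3048 and 3098 with quercetin (2.02 ± 0.15 SE with quercetin, limma adjusted p = 1.57e-05). Chaf1a, its larger partner, rose by 1.82 ± 0.15 (limma adjusted p = 2.49e-05). E2f1, the activator of G1/S genes, read 892, 1513 and 885, then 502, 489 and 520, then 2548, 2267 and 2519. It rose by 2.28 ± 0.20 with quercetin (limma adjusted p = 3.61e-05), to 1.20 ± 0.20 above normoxia (limma adjusted p = 0.00153). Gins3, a subunit of the replicative helicase, rose by 1.73 ± 0.16 (limma adjusted p = 4.83e-05). In hypoxia the 4 differed from normoxia by -1.66, -1.48, -1.08 and -1.39, short of the rule's threshold. The list did not move as one, since Ccne2, the other cyclin E, rose in hypoxia by 1.93 ± 0.12 (limma adjusted p = 5.9e-06).

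Other lists are given for comparison, with no test of a difference between lists. None of 36 tested genes on the list of mitosis was among the 160, though the list does not hold every such gene and leaves out Cenpi, a member. Of the 36, 31 fell in hypoxia, and with quercetin 4 rose and 16 fell, with a median of -1.26 log2 against normoxia. Of 23 tested genes of recombination repair, Rad54b was a member. Of the other 22, 8 fell and 6 rose in hypoxia and 14 rose and 3 fell with quercetin. Beside both lists, 28.9% of all genes tested fell and 35.3% rose in hypoxia, and 26.9% rose and 31.5% fell with quercetin. None of 31 tested targets of hypoxia-inducible factor and none of 19 genes of glycolysis on these lists was a member. Nor was any tested gene of the lists for nucleotide synthesis, the respiratory chain, matrix, contraction, nitric oxide signalling, inflammation, aryl hydrocarbon receptor targets or amino acid stress. The lists are selections: Cxcl13, a chemokine, and Wisp1, a matricellular protein, were members without standing on them.

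Because several of these genes are known in other settings as E2F targets, the start regions were searched for the E2F core in 4 spellings, TTTCGCGC, TTTCCCGC, TTTGGCGC and TTTGCCGC, on both strands. RefSeq start regions of 300 bases (build GRCr8, 250 before the start and 50 after) were held for 131 of the 160 genes. A match stood in 7 of them, or 5.34%, against 4.09% of 9596 tested genes and 2.25% of all 27457 regions. The share was thus near that of tested genes. Of the 7, Pclaf, Nup210, Lrr1, Trmt6 and Lcmt2 are printed because they belong to DNA synthesis, tRNA modification and the nuclear pore, and the others are Ptgfr and Kitlg. Orc1, Ccne1 and E2f8 were not among the matches. Each line gives 120 bases from the region ahead of the start, 5′ to 3′ on the strand of the gene, with the match in capitals. The position of the match's first base, counted from the start, follows the coordinates, then the position of the first base printed.
Pclaf, chr8:75315597-75315716, plus strand, match at -45, line from -120: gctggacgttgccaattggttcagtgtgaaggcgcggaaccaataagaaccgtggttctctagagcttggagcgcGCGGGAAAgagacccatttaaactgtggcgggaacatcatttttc
Nup210, chr4:125167072-125167191, minus strand, match at -88, line from -144: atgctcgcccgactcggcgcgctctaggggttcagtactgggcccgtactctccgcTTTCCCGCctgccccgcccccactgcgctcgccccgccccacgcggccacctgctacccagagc
Lrr1, chr6:93379156-93379275, plus strand, match at -13, line from -120: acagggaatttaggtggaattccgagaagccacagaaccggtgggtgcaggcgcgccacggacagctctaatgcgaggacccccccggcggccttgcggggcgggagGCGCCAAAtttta
Trmt6, chr3:140539577-140539696, minus strand, match at -131, line from -187: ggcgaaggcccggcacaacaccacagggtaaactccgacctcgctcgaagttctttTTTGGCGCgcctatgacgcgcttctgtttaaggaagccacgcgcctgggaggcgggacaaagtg
Lcmt2, chr3:128555871-128555990, minus strand, match at -103, line from -159: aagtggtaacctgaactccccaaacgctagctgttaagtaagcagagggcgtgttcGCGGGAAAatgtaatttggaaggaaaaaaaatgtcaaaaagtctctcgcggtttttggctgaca

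Other motifs, like the E2F core, were about as frequent in the start regions of the 160 genes as in those of tested genes, within a few percentage points. The E-box CACGTG stood in 13.0% against 9.41%, the hypoxia response core ACGTG in 23.7% against 25.4% (it lies within the E-box) and the aryl hydrocarbon receptor core GCGTG in 52.7% against 48.9%. The antioxidant response core TGACNNNGC stood in 14.5% against 14.3%, the cyclic AMP element TGACGTCA in 2.29% against 3.12% and CCAAT in 38.9% against 38.0%. Median GC content was 61.0% against 60.7%. The genes were spread over 21 chromosomes with no 2 of them adjacent, and their median span of 23018 bp was close to the 22245 bp of tested genes.

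A group of 15 genes serves RNA modification, ribosome assembly and translation, and its median difference was -2.86 in hypoxia and 2.48 with quercetin. Trmt6, a subunit of the enzyme that methylates adenosine in tRNA, was the steadiest: 696, 617 and 598 in normoxia, 111, 111 and 125 in hypoxia and 624, 591 and 617 with quercetin. Lcmt2 and Trmt12, enzymes of wybutosine synthesis on phenylalanine tRNA, shared the profile. Lcmt2 read 600, 1119 and 510, then 156, 172 and 161, then 861, 670 and 909. Trmt12 read 377, 483 and 320, then 74.6, 69.8 and 77.0, then 412, 315 and 462. In both the quercetin arrays overlapped with normoxia. Dph3, which takes part in diphthamide synthesis on the elongation factor of translation, read 584, 514 and 537 in normoxia, 31.7, 34.6 and 36.1 in hypoxia and 219, 274 and 250 with quercetin, so it regained less than most. Heatr1, a factor of ribosomal RNA transcription and processing, read 447, 565 and 442, then 38.5, 38.1 and 34.2, then 257, 303 and 264, and likewise stopped below normoxia. Nol10, Dtd2, Mettl13, Ybey, Mrpl49, Zcrb1, Pspc1, Rbm12 and Papolb were also in the group. Of 36 tested genes of ribosome assembly Heatr1 was the 1 member. Of the other 35, 20 fell and 4 rose in hypoxia and 10 rose and 8 fell with quercetin, with a median over all 36 of 0.05 with quercetin. Over all genes tested, 28.9% fell and 35.3% rose in hypoxia, and 26.9% rose and 31.5% fell with quercetin.

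The largest smaller-of-both differences in the deposited values belonged to genes of other roles. Hspa4, a large chaperone that recharges Hsp70 with nucleotide, read 5640, 5552 and 4812 in normoxia, 318, 352 and 429 in hypoxia and 6340, 5274 and 6431 with quercetin. That is 14.6-fold lower in hypoxia and 16.5-fold higher with quercetin, and the quercetin and normoxia arrays overlapped. Cct8l1, a chaperonin-like gene now named Cct8l2, was dim in hypoxia and at least 2.58-fold higher in normoxia and at least 4.45-fold higher with quercetin. Mkks, a chaperonin-like protein of the Bardet-Biedl complex, was also dim in hypoxia on the rule's probe, with bounds of 2.92-fold and 2.98-fold. Its partner Bbs12 read 144, 217 and 113, then 16.8, 23.2 and 25.1, then 248, 164 and 234.1. The folding genes Dnajc12 and Hspa12a had the same profile at low signal.

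Among receptors and channels, Kcnk2, a mechanosensitive background potassium channel, had 1642, 2608 and 1695 in normoxia, 157, 171 and 216 in hypoxia and 2531, 1873 and 2251 with quercetin. It was 10.8-fold lower in hypoxia, and quercetin returned it into the normoxia range. Gpr155, a lysosomal membrane protein known in human cells as a cholesterol sensor, was dim in hypoxia (2.93, 5.74 and 8.80) and read 80.6, 36.0 and 61.8 in normoxia and 164, 183 and 168 with quercetin. Adra2a, an inhibitory adrenergic receptor, was dim in hypoxia as well and read 49.97, 65.4 and 47.2 in normoxia and 114, 125 and 101 with quercetin. Both ended above every normoxia array. Fzd1, a receptor for Wnt ligands, read 8145, 9887 and 5807, then 1594, 1682 and 1346, then 7604, 5743 and 6179. Epha4, Gfra1, Plxna2, Lrp3, Rxfp1 and Ptgfr were the other members. Ptgfr, the receptor of a constrictor prostaglandin, read 31.3, 71.9 and 19.7 in normoxia and 14.7, 14.2 and 15.8 with quercetin, below every normoxia array. It did not pass as lower than normoxia in the limma fit at an adjusted p under 0.05. On quercetin replicate 1 its signal lay under 33.6, the lowest counted as above background there.

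Secreted signals included growth factors and a pair of Wnt-related proteins. Fgf7, a growth factor that acts on epithelium, read 365, 664 and 203 in normoxia, 64.6, 68.7 and 74.8 in hypoxia and 399, 440 and 376 with quercetin. Kitlg, the ligand of the Kit receptor, read 748, 1137 and 549, then 107.2, 114.3 and 118.8, then 505, 599 and 331. Wisp1, a matricellular protein now named Ccn4, read 74859, 59243 and 81154, then 8432, 8692 and 10345, then 31776, 31751 and 31148, so quercetin brought back only part of the signal. Cklf, a chemokine-like factor, read 810, 1678 and 703, then 60.4, 68.3 and 78.1, then 872, 722 and 784. Fgf9, Serpinf2 and Apoa1 had low signals. Gdf11, a ligand of the TGF-beta family, had low signals on the rule's probe, 42.9, 44.8 and 35.7 in normoxia, and its further probe read 867, 701 and 846, then 185, 153 and 156, then 619, 758 and 620.

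The remaining groups repeat the profile at various levels. In the group for mitochondria and iron-sulfur proteins, Tmem177, which serves cytochrome c oxidase assembly, read 348, 419 and 288, then 27.0, 28.7 and 33.2, then 323, 256 and 324, while Cisd2, an iron-sulfur protein of the endoplasmic reticulum and mitochondria, read 2942, 2662 and 2575, then 222, 245 and 280, then 1699, 1820 and 1722. Among lipid genes, Acaca, the carboxylase that commits acetyl-CoA to fatty acid synthesis, read 3650, 3840 and 3627, then 831, 771 and 859, then 3409, 2948 and 3518. The other 24 tested genes of sterol and lipid synthesis did not follow as a body, with 10 lower and 5 higher in hypoxia and 9 higher and 8 lower with quercetin. Abcc4, an exporter of cyclic nucleotides, was dim in hypoxia, at least 6.39-fold higher in normoxia and at least 3.02-fold higher with quercetin. Of the other 23 tested Nrf2 targets, 7 fell and 6 rose in hypoxia and 9 rose and 5 fell with quercetin. For both lists the shares over all genes tested were 28.9% lower and 35.3% higher in hypoxia, and 26.9% higher and 31.5% lower with quercetin. Dido1, a PHD-finger protein, Tgfbrap1, a partner of TGF-beta receptors and of endosome tethering, and Stac3, an adaptor of muscle excitation and contraction, were dim in hypoxia on all arrays, with bounds for normoxia of 9.78-fold, 2.59-fold and 1.38-fold. On quercetin replicates Tgfbrap1 spread from 24.2 to 99.1.

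The threshold cuts a continuum. Just inside lay H2afx, Cdh11 and Dmrt2, with smaller differences in the deposited values of 2.01, 2.00 and 2.00, and just outside lay Eif4g3, Ap5m1 and Mrps2 with 2.00, 1.99 and 1.99.

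The rule set no threshold on the distance between quercetin and normoxia, and this difference was tested with limma over all 22107 genes. It uses the same arrays, and the demand for normoxia signal favours genes bright in normoxia. Of the 160 genes, 32 (20.0%) remained lower with quercetin than in normoxia at an adjusted p under 0.05, 10 (6.25%) ended higher and 118 did not pass. Over all genes tested 21.3% were lower and 23% higher, so on this scaling the share lower was near the background and the share higher was below it. The median difference was -0.19, against 0.04 for all genes, and 137 of the 160 lay within 1 log2 unit of normoxia. Groups that did not overlap were seen in 72 genes (45.0%), against 53.6% of all genes. A miss of the threshold does not show that normoxia was reached: the standard errors of single genes are drawn in the plot of distances from normoxia.

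Scaling and array batch change these counts. Scaling to the spike-in probes moved the median of all genes from 0.04 to -0.36 and gave 78 lower and 3 higher among the 160, where 44.2% of all genes were lower and 7.57% higher. With scan day as a block, which rests on normoxia replicate 3, 13 were lower and 4 higher, or 8.12% and 2.5%, where 14% and 12.3% of all genes were; here both shares of the 160 were below the background. Without quercetin replicate 3, 6 were higher and 22 lower (3.75% and 13.8%), against 17.4% and 17.5% of all genes. Among the 56 genes well above background on all 9 arrays, a fit restricted to such probes called 16 lower and 3 higher (28.6% and 5.36%), against 23.9% and 28.8% of all genes in that fit.

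**Figure D4:**
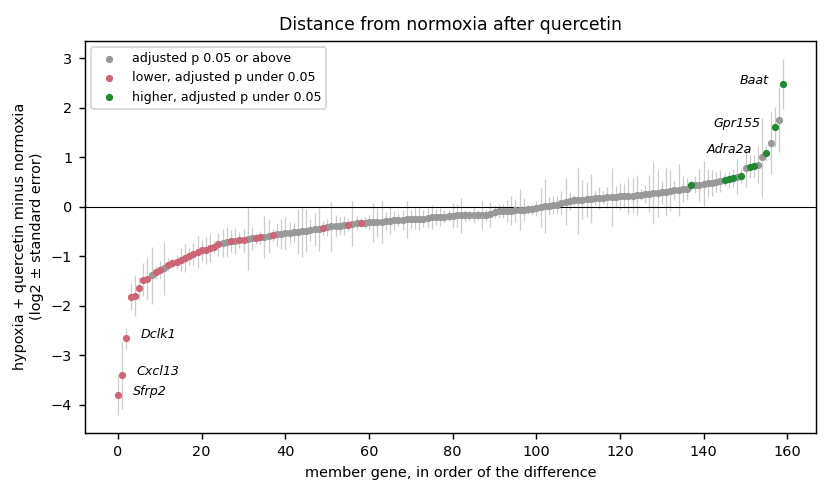
Difference between hypoxia with quercetin and normoxia (log2, vertical, bars are 1 standard error of the limma fit) for the 160 genes in order of size; red points passed as lower, green points as higher and grey points did not pass. Most points lie near 0, with Sfrp2, Cxcl13 and Dclk1 at the lower end (-3.81, -3.40 and -2.66) and Baat at the upper end (2.47).

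The genes that stayed lowest were led by secreted proteins. Sfrp2, a secreted modulator of Wnt signalling, read 401, 460 and 263 in normoxia, was dim in hypoxia (2.87, 6.46 and 9.11) and read 21.9, 28.6 and 28.2 with quercetin. It was at least 20.6-fold higher in normoxia than in hypoxia but only at least 1.47-fold higher with quercetin, and against normoxia it stood at -3.81 ± 0.40 log2 (SE; limma adjusted p = 0.000174). Cxcl13, a chemokine that attracts B cells, spread widely in normoxia (168, 447 and 60.2) and read 10.6, 22.2 and 16.2 with quercetin, at -3.40 ± 0.69 (limma adjusted p = 0.00443). For Cxcl13 no fold above 1 could be bounded with quercetin over hypoxia. Dclk1, a microtubule-associated kinase, read 1150, 1494 and 1027 in normoxia, 46.0, 44.9 and 50.2 in hypoxia and 169, 263 and 156 with quercetin, at -2.66 ± 0.21 (limma adjusted p = 4.59e-05). Echdc1, a metabolite-proofreading decarboxylase, read 1149, 842 and 496, then 50.2, 57.5 and 53.0, then 239, 216 and 210, at -1.82 ± 0.26 (limma adjusted p = 0.000819). The RING-finger genes Rnft2 and Rnf32 stood at -1.80 ± 0.41 and -1.65 ± 0.22 (limma adjusted p = 0.00763 and 0.000627). With scan day as a block, Cxcl13 at -1.95 and Rnft2 at -1.36 did not pass (adjusted p = 0.079 and 0.118), and Echdc1 stood at -1.16.

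In the translation group 6 of 15 genes stayed lower, where 21.3% of all genes and 20.0% of the 160 did, and the group was formed by hand with earlier results known. They included Dph3 at -1.14 ± 0.11 and Heatr1 at -0.81 ± 0.12 (limma adjusted p = 0.000108 and 0.00109). Wisp1 stood at -1.17 ± 0.13 (limma adjusted p = 0.000254). Abcc4 stood at -1.08 ± 0.24 (limma adjusted p = 0.00641), which was lost with scan day as a block (adjusted p = 0.081) and with the deposited values (adjusted p = 0.0517). In the cell cycle group 2 of 17 were lower, E2f8 and Eepd1, and 2 were higher, Ccne1 and Wdhd1. Of the adhesion genes Flrt2 and Omd were lower.

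Of the 10 genes above normoxia, Baat, which conjugates bile acids, was the most distant: 31.0, 11.7 and 25.6 in normoxia, dim in hypoxia and 129, 123 and 101 with quercetin, at 2.47 ± 0.51 (limma adjusted p = 0.00513). Gpr155 stood at 1.60 ± 0.41 (limma adjusted p = 0.0127) and Adra2a at 1.07 ± 0.16 (limma adjusted p = 0.00086). Wdhd1 stood at 0.82 ± 0.22, Srd5a1, a reductase of testosterone, at 0.81 ± 0.23 and Mal2, a protein of membrane traffic, at 0.63 ± 0.16 (limma adjusted p = 0.0173, 0.0192 and 0.0124). Ccne1 stood at 0.55 ± 0.17 (limma adjusted p = 0.0272). Odf2l, Zfp438 and Ybey were the others. With scan day as a block Adra2a and Wdhd1 still passed (adjusted p = 0.00596 and 0.0229), and Baat, Gpr155, Srd5a1, Mal2 and Ccne1 did not (adjusted p = 0.0725, 0.115, 0.0867, 0.184 and 0.0563). Ccne1 also missed the threshold without either normoxia replicate 1 or 3 or quercetin replicate 1 or 3, Wdhd1 without normoxia replicate 1 or quercetin replicate 1 or 3, and Srd5a1 without normoxia replicate 3 or quercetin replicate 2 or 3. With spike-in scaling Ccne1, Wdhd1, Srd5a1 and Mal2 did not pass (adjusted p = 0.549, 0.194, 0.137 and 0.277), and Mal2 also missed the threshold on the deposited values and with quantile normalisation (adjusted p = 0.265 and 0.264).

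Other probes for the same genes were not used to represent them, although all probes entered the rule. Of the 160 genes, 73 had 99 further probes, and 84 of these, for 62 genes, were well above background on all normoxia arrays. Of the 84 probes, 65 moved in the same directions in both steps, 38 by at least 1 log2 unit in both and 10 by at least 2 in both, while 24 probes of 20 genes moved by less than 0.5 in the rule's directions in both or went the other way. Their median differences were -1.34 and 0.94, against -2.46 and 2.28 for the rule's probes of the same genes. The rule's probe was picked for large differences, so a smaller second value is partly built in.

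Several genes had a second probe with the same profile. For Ccne1 the further probe read 60.05, 79.8 and 63.1, then 29.1, 18.1 and 12.6, then 104, 104 and 102. For Ns5atp9 it differed by -3.70 in hypoxia and 2.96 with quercetin, and for Odf2l by -2.64 and 3.24. Both further probes of Sfrp2 were low in hypoxia, by -3.26 and -5.69, and differed by 0.77 and 1.95 with quercetin. The second read 2.92, 4.74 and 9.54 in hypoxia, under the lowest signal counted as above background on each array. Its differences thus depend on the detection floor. The first probe lay under that signal on hypoxia replicate 3 and quercetin replicate 1. Trmt6 had -1.23 and 1.48.

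In other genes a second probe read differently. For Hspa4 the rule's probe starts at base 4396 of the transcript, and a probe starting at base 79 read 829, 822 and 1066 in normoxia, 1000.5, 894 and 940 in hypoxia and 1343, 1205 and 1117 with quercetin, a difference of 0.07 in hypoxia. For Adra2a a probe at base 1325, ahead of the rule's probe at 2426, differed by 0.24 and 0.21. A brighter Mkks probe on the same record read 1731, 2132 and 1654 in normoxia and 702, 739 and 730 in hypoxia. It read 1276, 1157 and 1276 with quercetin, and its differences were -1.34 and 0.77. For Kalrn probes at bases 3418 and 4453 differed by -0.11 and 0.10 in hypoxia, against -3.89 at base 8300. Probes on another transcript record of the gene also differed. A Cdadc1 probe went the other way, by 1.094 and -0.999, and so did one for Tceb1, the elongin C gene now named Eloc, by 0.39 and -0.36. One for Acaca differed by 0.47 and -0.22, and one for E2f8, at low signal, by -0.39 and 0.20. On the same record as the rule's probe, Rnft2 differed by -0.28 and 0.04, Atrn by 0.62 and -0.56 and Mal2 by -0.08 and 0.18. For Dclk1, 4 further probes of other transcript records differed by 0.67, -0.34, -1.41 and -2.66 in hypoxia. With quercetin against hypoxia they differed by -1.62, -1.21, 0.45 and 0.34, in the same order. These genes are examples. For them and for the others, the profile above is that of the rule's probe unless another probe is named.

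Where the 2 probes lay followed a pattern. Among 66 pairs of probes on the same transcript record, at least 60 bases apart and for 51 of the 160 genes, the rule's probe was the one nearer the 3′ end in 55 pairs (83.3%). The rule chose this probe for its size of change and did not use its position, so the share describes where the chosen probes lie; how much the 2 probes of a pair differ follows from the choice and is not given as a result. Where 1 probe of a pair was at least 2 log2 units lower in hypoxia and quercetin returned less than 2, that probe was nearer the 3′ end in 59.8% of 87 pairs. For probes with the mirrored profile, higher by 2 in hypoxia and lower by 2 with quercetin, the share was 4 of 9 pairs. The rule's probes started at a median of base 1801 of their transcripts (145 genes with a RefSeq record). The median was 1288 for 15439 probes of RefSeq records well above background on all normoxia arrays. Starts are counted from the 5′ end and transcript length was not considered, so these medians do not give the distance to the 3′ end. Pairs of a gene share arrays and RNA, and these shares were given no test.

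**Figure D5:**
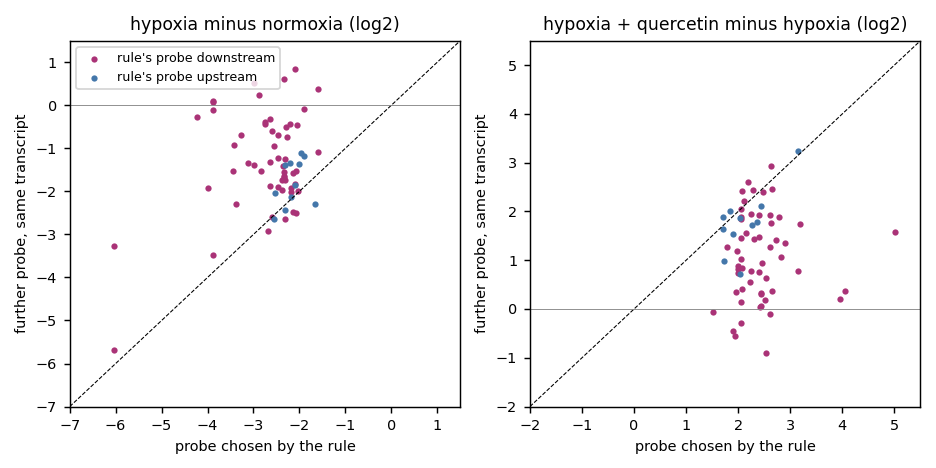
Each point is a pair of probes on the same transcript for 1 of the 160 genes, with the rule's probe on the horizontal axis and the further probe on the vertical axis, for hypoxia minus normoxia (left, log2) and hypoxia with quercetin minus hypoxia (right, log2); the dashed line marks equal differences. Most points with the rule's probe downstream (purple, 55 of 66 pairs) lie nearer 0 on the vertical axis than on the horizontal one, as the choice of the rule's probe favours.

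Marker genes of several cell types moved between the groups, and none of them was among the 160. Of 10 smooth muscle markers 9 were tested and Acta2 was not analysed here; their summed signal lay between 81553 and 141870 in normoxia, between 182650 and 193330 in hypoxia and between 58016 and 69673 with quercetin. The epithelial list, of which 5 of 9 were tested and Epcam, Cdh1, Krt19 and Sftpc did not have enough signal, summed to 1860 to 2762, 19077 to 22665 and 3643 to 4401. Fibroblast markers (8 of 10 tested) summed to 223180 to 248750, 311700 to 356400 and 212250 to 259580, leukocyte markers (9 of 12) to 2476 to 2963, 2331 to 2500 and 1812 to 1900, and endothelial markers (2 of 8, without Pecam1 and Vwf) to 46.3 to 54.2, 64.8 to 77.3 and 28.9 to 53.5. In hypoxia against normoxia 6 smooth muscle, 3 epithelial, 6 leukocyte and 2 fibroblast markers rose. In the same step 1 leukocyte and 4 fibroblast markers fell, where 35.3% of all genes rose and 28.9% fell. The sums are led by the brightest genes and do not show the direction of every marker. With quercetin against hypoxia 7 smooth muscle, 5 fibroblast, 3 epithelial, 4 leukocyte and 1 endothelial markers fell. Only 1 leukocyte marker rose, where 26.9% of all genes rose and 31.5% fell. With quercetin against normoxia 7 of 8 fibroblast markers were lower and 1 higher. Of 9 leukocyte markers 4 were higher and 2 lower. Smooth muscle had 2 higher and 3 lower and epithelial 3 higher and 1 lower, where 23% of all genes were higher and 21.3% lower. The part of these markers in the profile of the 160 genes was not tested, and in such bulk samples fewer cells of a type and less RNA per cell cannot be told apart.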

How the data were processed

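RNA of 9 samples was measured on 1-colour Agilent rat arrays. Intensity values came from the deposited scanner files, made with Agilent Feature Extraction 10.7.3.1, per the file headers. The deposited log2 value table was compared with them array by array (r = 0.9912 to 0.9998), and its columns all had a median of 5.717, with no centring step named. While the labels describe a miRNA labelling kit, the file headers name a gene expression protocol, so the labelling chemistry is unsettled. Genes were chosen from the log2 table. Differences were then fitted with limma 3.58.1 in R 4.3.3 on log2 processed signal minus the 75th percentile of each array, over all 9 arrays, with Benjamini-Hochberg adjustment over 22107 genes (adjusted p under 0.05, two-sided). Kept were 26654 probes bright enough, by the scanner's background flag, in every sample of some group; 1639 control spots and 71 to 148 outlier-flagged spots per array were left out, and none was saturated. The number of arrays limits the precision: the fit had 6 residual degrees of freedom. The fit was tested on simulated data. Named genes are the 12 with the largest smaller difference, members of fixed pathway lists, the 6 most above and 6 most below normoxia among those past the threshold with groups apart, 3 on each side of the threshold and 4 further genes of a list with at least 2 members; other members were named for their role after their values were seen. Members and lists were chosen with earlier results of these data known. Alternatives covered normalisation, filters, thresholds, slide, scan day, replicate block and leaving out each replicate. Deviations of same-numbered samples did not go together (r = -0.27 to 0.02), so numbers were not taken as pairs. Gene names and start regions came from RefSeq tables (build GRCr8). Of the 160 genes, 1 is counted but not reported by name here.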

Additional observations from a re-analysis of the deposited data

How the results depend on the processing

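The number of genes meeting the rule was 160 and became 370 at a threshold of 1.5, 19 at 3 and 14 on normexp-corrected, quantile-normalised signals, where an offset of 50 shrinks differences of dim probes by construction. It was 125 on scanner signals (123 shared with the 160) and 141 to 189 when a replicate was left out (125 to 157 shared). With spike-in scaling it was 196 (142 shared). Taking each gene's brightest probe before the thresholds left 128, all among the 160, so the rest entered only through a dimmer probe. Against normoxia, 32 genes were lower and 10 higher. Spike-in scaling gave 78 and 3 with a median of -0.59 instead of -0.19, scan day as a block 13 and 4, and the demand for signal on all 9 arrays 16 and 3 of 56. Leaving out a replicate gave 22 to 37 lower and 6 to 15 higher, with medians of -0.29 to -0.13. The replicate block, fitted although the numbers do not pair the samples, gave 27 lower and 9 higher, and slide as a random block 28 and 10. For the named genes 533 alternative values stayed on their side of the threshold, 29 lost it and 17 gained it; no direction of a called gene turned. Of the replication list 24 to 28 genes fell in hypoxia and 28 to 31 rose with quercetin when a replicate was left out. Slide as a fixed block leaves the quercetin contrasts without an estimate and was run for hypoxia against normoxia only. The cause of these shifts was not tested beyond what the settings construct. Background on hypoxia replicate 3 and quercetin replicate 1 limits what dim genes can show.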
